A study of Mus musculus with 2 samples.

Results

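The subunits of N-methyl-D-aspartate (NMDA) receptors and the delta receptor subunit GluD1 were followed across the cell classes of mouse cerebral cortex. The members were 7 of the 55450 genes listed in the count tables, chosen by symbol: Grin1, Grin2a, Grin2b, Grin2c, Grin2d, Grin3a and Grid1. They encode GluN1, GluN2A, GluN2B, GluN2C, GluN2D, GluN3A and GluD1. UMIs of all 7 were found in both libraries.

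The study asked which signals between neurons and oligodendrocyte (OL) precursor cells (OPCs) change after preterm white matter injury (WMI). Single-cell RNA sequencing was done on 2 libraries of cerebral cortex from 2-week-old C57BL/6 mice, 1 control and 1 WMI. By the labels, the right common carotid artery was tied under 1 h of hypoxia on postnatal day 7, and on day 14 the operated cortex of the injured animals and the cortex of that side of control animals were taken as nuclei. The paper's methods give earlier days, a longer hypoxia, trypsin-dissociated cells and several animals per group, and these differences could not be settled from the tables. Both groups were otherwise described alike, with no transgene or drug, and the labels print the ligation text for both. Each group was 1 library, so no test between conditions was possible, and every interval below covers counting error only.

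NMDA receptors join the obligatory GluN1 subunit to GluN2 or GluN3 subunits. Those with GluN2 open when glutamate and a co-agonist, glycine or D-serine, are bound while the membrane is depolarized, which lets calcium in. GluN2B is the main partner in the newborn forebrain and GluN2A gains weight as synapses mature, while GluN3A lowers the calcium current and is most abundant in young brain. GluD1 is not opened by glutamate in the usual way and binds secreted cerebellins, which tie it to neurexins across the synapse. OPCs receive glutamatergic contacts from axons, and glutamate acting on OL-lineage cells is a known subject of research on hypoxic-ischemic white matter injury.

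In GENCODE M21, annotated on GRCm38, Grin1 (ENSMUSG00000026959) lies at chr2:25291181-25319187, Grin2a (ENSMUSG00000059003) at chr16:9567898-9995560 and Grin2b (ENSMUSG00000030209) at chr6:135713233-136173511. Grin2c (ENSMUSG00000020734) lies at chr11:115249169-115267243, Grin2d (ENSMUSG00000002771) at chr7:45831883-45878378 and Grin3a (ENSMUSG00000039579) at chr4:49661611-49845744. These 6 genes are on the minus strand, and Grid1 (ENSMUSG00000041078) is on the plus strand at chr14:34820108-35583379. The tables count UMIs per gene and do not divide them among exons, introns and UTRs. The antisense gene Grin1os overlaps Grin1 and is counted apart, with 512 control and 257 WMI UMIs against 25232 and 20179 for Grin1. Small genes on the opposite strand also overlap Grin2b, Grin2c and Grid1, and Kdelr1 and Gm45441 overlap Grin2d. On the same strand Grin3a overlaps Ppp3r2 and Gm12459, Grid1 overlaps Gm27617 and Mir346, and Grin2d overlaps Gm22098, and whether counting used strand is not given in the sources used here. Levels were compared across cells for 1 gene at a time, because the transcripts differ in length.

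RefSeq promoters on GRCm38.p6 were given for 3 members. The 250 bases before the start are shown for all 3, since these genes were highest in different cells: Grin1 in neurons, Grin2c in astrocytes and Grin2d in interneurons. Capitals mark GGGCGG or its reverse complement CCGCCC, a GC box searched on both strands, and all lines read 5′ to 3′ along the minus strand. The Grin2d start used by RefSeq falls inside the longer GENCODE gene.
Grin1, chr2:25319188-25319437: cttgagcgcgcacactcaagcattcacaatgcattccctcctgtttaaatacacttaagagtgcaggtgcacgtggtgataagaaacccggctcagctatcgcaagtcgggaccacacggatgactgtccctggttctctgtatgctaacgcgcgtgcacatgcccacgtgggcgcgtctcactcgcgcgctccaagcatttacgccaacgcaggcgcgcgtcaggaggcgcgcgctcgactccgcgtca
Grin2c, chr11:115267244-115267493: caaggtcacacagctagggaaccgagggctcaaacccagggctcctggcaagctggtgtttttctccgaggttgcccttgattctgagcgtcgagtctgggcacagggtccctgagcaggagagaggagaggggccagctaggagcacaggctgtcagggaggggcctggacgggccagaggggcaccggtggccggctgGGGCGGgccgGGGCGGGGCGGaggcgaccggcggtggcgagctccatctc
Grin2d, chr7:45866682-45866931: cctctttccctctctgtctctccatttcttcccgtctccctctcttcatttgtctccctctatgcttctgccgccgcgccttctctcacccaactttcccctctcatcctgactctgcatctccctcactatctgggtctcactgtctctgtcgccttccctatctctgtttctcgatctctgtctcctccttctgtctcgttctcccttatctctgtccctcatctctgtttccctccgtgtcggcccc
Grin2c held 3 matches, of which some overlap, and Grin1 and Grin2d held 0, where 32.7% of 32851 promoters of this length held at least 1. GC content was 68.8% before Grin2c, 58.8% before Grin1 and 54.4% before Grin2d, and the median over all promoters was 52.4%. The matches are a description of these letters and no evidence of binding.

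The control library held 66470806 UMIs in 10288 barcodes and the WMI library 60568639 in 8354. After filters and removal of predicted doublets 8755 and 7571 cells were kept, with medians of 4540.0 and 5217 UMIs. The libraries shared 36 barcode sequences. UMIs of Xist or Tsix, which mark female cells, were found in 0.24% of control and 64.6% of WMI cells, and the labels do not give the sex of the animals. The median mitochondrial share was 0.0696% and 0.472%. Of 33 clusters, 30 were named from marker lists, and 3 (82 control and 1684 WMI cells) stayed unnamed. The OPC-like and pre-OL-like clusters passed on 8 of 8 markers each, the mature OL-like and astrocyte-like clusters on 10 of 10, excitatory neuron-like clusters on 4 to 8 of 8 and inhibitory ones on 4 to 5 of 7. By the same count of excitatory markers the microglia-like cluster reached 5 and the endothelial-like cluster 4. The count alone therefore does not set apart clusters 9 and 19, which passed on 4, or 0 and 24, which passed on 5. At least 90% of the cells of 5 clusters came from 1 library. Excitatory clusters 0 and 2 were almost all control, and 9 was mostly WMI, and the excitatory class held 6615 control cells (median 3782 UMIs) but 2891 WMI cells (median 9896). For Grin1, Grin2a, Grin2b, Grin3a and Grid1, ratios between the libraries in this class are therefore given within clusters as well.

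Droplet libraries carry free RNA, so microglia-like cells, which should hold little mRNA of neuronal receptors, served as the measure of background. Levels are in CPM, the UMIs of a gene scaled to all UMIs of the cells pooled in a class, with exact 95% Poisson intervals in parentheses. In microglia-like cells (401 control and 677 WMI cells, median 3160.0 and 3028 UMIs) Grin2a was at 779 and 574 CPM and Grin2b at 908 and 689 CPM in the control and WMI library. Their Grin1 was at 137 and 156 CPM, their Grin3a at 87.8 and 93.6 CPM and their Grid1 at 252 and 256 CPM. A level at or below these is called background here, which means only that it was not told apart from free RNA. The reference is not a floor shared by all classes, since mature OL-like cells held 379 and 185 CPM of Grin2a. A level at or below it therefore does not show that a class lacks the mRNA.

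**Figure D1:**
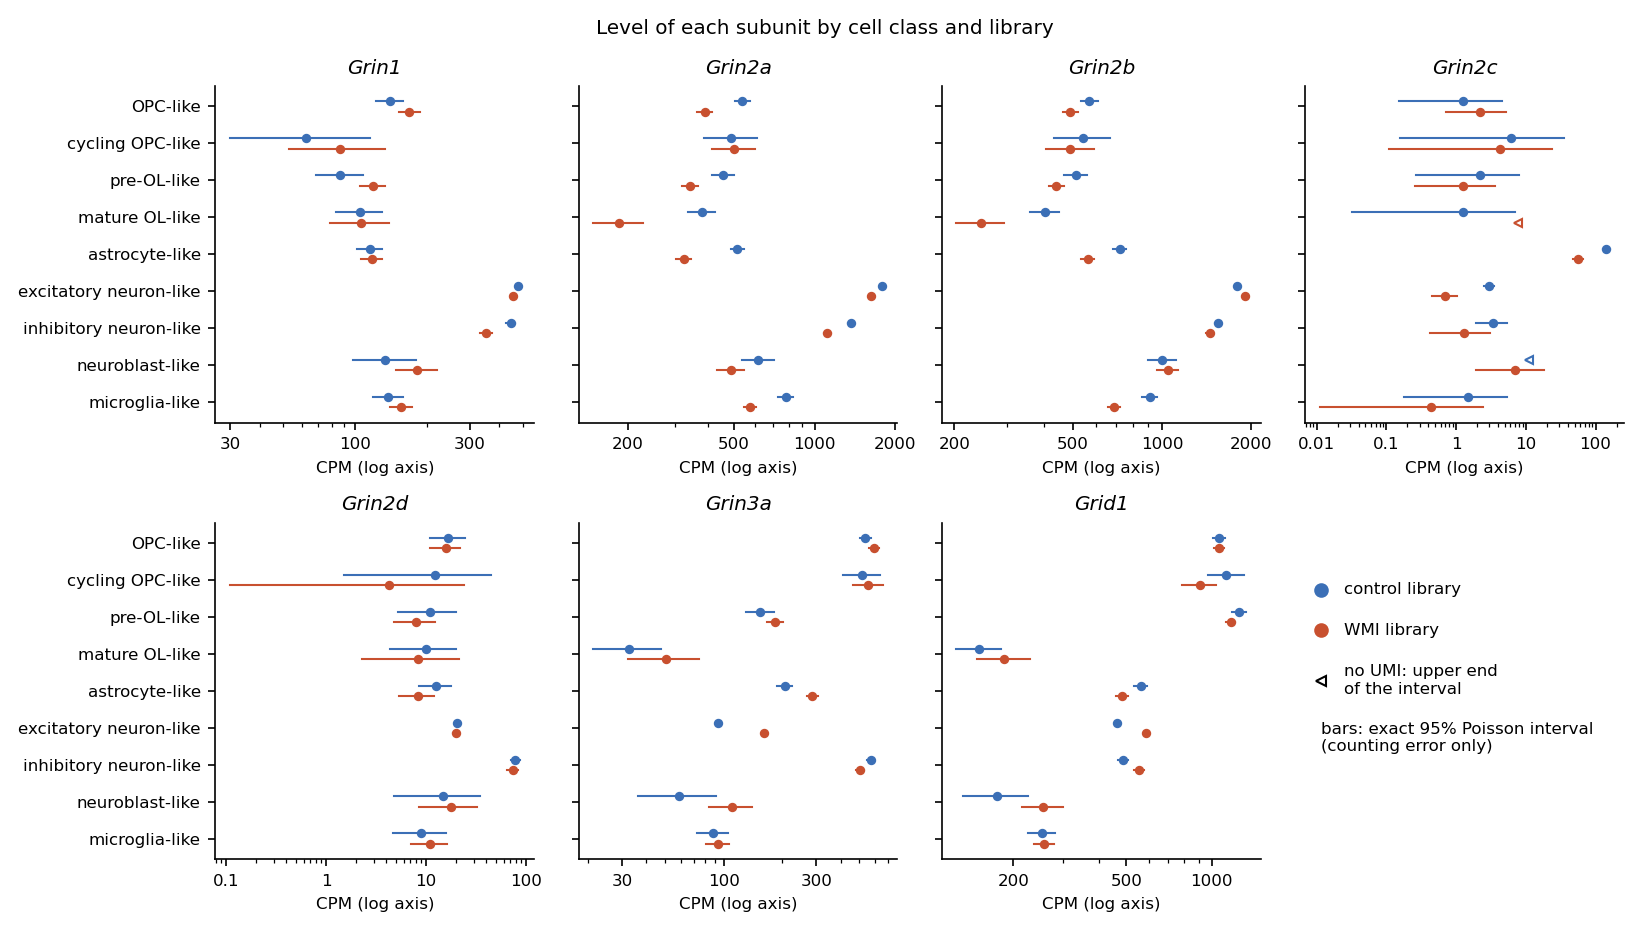
Level of each subunit in CPM (log axis) in 9 cell classes, with control cells in blue, WMI cells in red and bars for the exact 95% Poisson interval. Grin1, Grin2a and Grin2b are highest in the neuron-like classes, Grin2c stands out in astrocyte-like cells (143 and 56.2 CPM), and Grin3a and Grid1 are high in OPC-like cells.

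Grin1, the subunit that every NMDA receptor needs, was highest in neurons. Excitatory neuron-like cells held 479 CPM (473 to 486) in the control library and 455 CPM (448 to 462) in the WMI library. Inhibitory neuron-like cells held 445 CPM (426 to 464) and 352 CPM (333 to 371). These were 3.49- and 2.92-fold the microglia-like level in excitatory and 3.24- and 2.26-fold in inhibitory cells. In OPC-like cells Grin1 was at 139 CPM (121 to 159) and 168 CPM (151 to 186), and 1.01-fold (0.829 to 1.24) and 1.08-fold (0.93 to 1.25) the microglia-like level. Cycling OPC-like cells were at 0.454-fold (0.214 to 0.853) and 0.554-fold (0.335 to 0.869) that level, from 10 and 20 UMIs. Grin2a and Grin2b of OPC-like cells were also below it, so it may not measure the free RNA in OPC-like cells. Whether OPC-like cells hold Grin1 mRNA of their own was not tested. Pre-OL-like, mature OL-like and astrocyte-like cells were at 86.4, 104 and 115 CPM in the control library and at 118, 105 and 117 CPM in the WMI library, none above background. After each cell was thinned to 1000 UMIs, 16.04% of control and 14.8% of WMI OPC-like cells had a Grin1 UMI, beside 13.5% and 14.03% of microglia-like cells. Without thinning these shares were 46.4% and 50.2% beside 35.7% and 38.8%, at median depths of 5145 and 4418 UMIs for OPC-like cells.

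Grin2a and Grin2b, which encode the main glutamate-binding subunits of the forebrain, were likewise highest in neurons. Excitatory neuron-like cells held 1791 CPM (1778 to 1803) of Grin2a in the control and 1627 CPM (1614 to 1641) in the WMI library. For Grin2b they held 1781 CPM (1769 to 1793) and 1906 CPM (1891 to 1920.4). Inhibitory neuron-like cells were lower for both genes, with 1370.4 and 1117 CPM of Grin2a and 1545 and 1448 CPM of Grin2b. In the OPC-like, pre-OL-like, mature OL-like and astrocyte-like classes both genes were below the microglia-like level of the same library. In OPC-like cells Grin2a reached 0.689-fold (0.629 to 0.755) and 0.675-fold (0.619 to 0.736) that level and Grin2b 0.627-fold (0.575 to 0.684) and 0.712-fold (0.659 to 0.77). In mature OL-like cells Grin2a reached 0.486-fold (0.426 to 0.553) and 0.322-fold (0.257 to 0.4) of it. Astrocyte-like cells were at 0.66- and 0.563-fold for Grin2a and 0.792- and 0.815-fold for Grin2b. The UMIs of these 2 genes in glia could therefore not be told from background. Neuroblast-like cells, the migrating young neurons, differed between the genes in the WMI library. Their Grin2b was at 999 CPM (895 to 1111) and 1045 CPM (963 to 1133), 1.10-fold (0.972 to 1.24) and 1.52-fold (1.38 to 1.67) the microglia-like level, so that the control interval spanned 1. Their Grin2a was at 0.791- and 0.845-fold.

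Grin2c, whose GluN2C subunit gives receptors that magnesium blocks weakly, was found in astrocyte-like cells. The control astrocyte-like cells held 354 UMIs or 143 CPM (129 to 159) and the WMI ones 177 UMIs or 56.2 CPM (48.2 to 65.1). The microglia-like cells held 2 and 1 UMIs, and the astrocyte-like level was 95.3-fold (26.2 to 790.0) and 129-fold (22.8 to 5106) theirs. Of the thinned astrocyte-like cells 15.5% (12.3 to 19.1) of the control and 5.21% (3.54 to 7.35) of the WMI library had a UMI, against 0 of 401 control microglia-like cells, where a count of 0 allows up to 0.748% by 3 counts and 0.916% by the exact interval, and 0.148% of the WMI ones. These limits are for cells with a UMI after thinning, and 0.499% of control microglia-like cells had 1 without it. The unthinned shares of astrocyte-like cells were 46.7% and 21.5%, at median depths of 4925 and 4952 UMIs. OPC-like cells held 2 and 5 UMIs of Grin2c, and pre-OL-like cells 2 and 3. Excitatory neuron-like cells were at 3.01 and 0.7 CPM, with 44 of their 138 control UMIs in cluster 2, the shallow cluster of mostly control cells.

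Grin2d, whose GluN2D subunit gives slowly closing channels, was highest in interneurons. Inhibitory neuron-like cells held 78.3 CPM (70.6 to 86.7) and 73.7 CPM (65.3 to 82.8), 8.70-fold (4.92 to 16.99) and 6.74-fold (4.47 to 10.6) the microglia-like level. Excitatory neuron-like cells held 20.6 CPM (19.4 to 22.01) and 19.99 CPM (18.5 to 21.5). In the control library the Sst, Lhx6 and Adarb2 interneuron clusters were at 83.99 (69.03 to 101), 76.4 (65.1 to 89.01) and 75.97 (61.9 to 92.2) CPM. In the WMI library they were at 55.5 (40.8 to 73.8), 71.97 (58.5 to 87.6) and 84.8 (71.1 to 100.4) CPM, and in neither library did the intervals of the 3 separate fully. OPC-like cells were at 16.8 and 15.9 CPM, from 27 and 36 UMIs, and their ratio to microglia-like cells had an interval that spanned 1 in both libraries.

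Grin3a, which encodes the glycine-binding subunit GluN3A, was raised above background in OPC-like cells as well as in some neurons. OPC-like cells held 536 CPM (501 to 573) and 595 CPM (564 to 628), 6.11-fold (5.03 to 7.48) and 6.36-fold (5.50 to 7.38) the microglia-like level. Astrocyte-like cells held 207 CPM (189 to 226) and 287 CPM (268 to 306), 2.36-fold (1.92 to 2.91) and 3.06-fold (2.64 to 3.57) that level. Of thinned OPC-like cells 41.3% (35.6 to 47.2) of the control and 41.2% (36.7 to 45.8) of the WMI library had a Grin3a UMI, beside 7.48% and 8.86% of microglia-like cells. Without thinning 85.3% and 85.2% of OPC-like cells had 1, beside 22.4% and 26.6%. Among neurons the order was set by 1 interneuron type. The Sst interneuron cluster, named by markers other than Grin3a, held 1661 (1592 to 1733) CPM in the control and 1607 (1522 to 1694) in the WMI library. The next highest neuronal cluster was 29, an excitatory cluster led by Oprk1 and Nr4a2, with 326 (284 to 373) CPM in the control library, and the near-projecting cluster 23 with 367 (329 to 409) CPM in the WMI library. The Adarb2 and Lhx6 interneuron clusters were at 226 and 122 CPM in the control library and 236 and 135 CPM in the WMI library. At the low end, layer 4 neurons of the control library were at 32.4 (28.4 to 36.7) CPM and cluster 14 of the WMI library at 59.5 (48.5 to 72.3) CPM, both under the microglia-like level.

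Grid1, the delta receptor gene, was highest in the OL precursors among the classes. OPC-like cells held 1059.8 CPM (1010.1 to 1111) and 1058 CPM (1016 to 1102), and pre-OL-like cells 1249.8 CPM (1178 to 1324) and 1168 CPM (1125 to 1212). In the latter the level was 4.96-fold (4.39 to 5.61) and 4.56-fold (4.17 to 4.998) the microglia-like one. By the mature OL-like stage it was at 152 CPM (126 to 181) and 185 CPM (148 to 228), below microglia-like cells in both libraries. Astrocyte-like, excitatory and inhibitory neuron-like cells were between these, at 562, 464 and 485 CPM in the control library and 483, 588 and 554 CPM in the WMI library. Of thinned cells 65.2% and 65.5% of OPC-like, 68.2% and 64.04% of pre-OL-like and 14.7% and 18.00% of mature OL-like cells had a UMI, beside 21.7% and 21.4% of microglia-like cells. Unthinned, 97.3% and 97.9% of OPC-like and 53.6% and 52.6% of microglia-like cells had 1. Among neurons Grid1 was highest in cluster 29 of the control library, at 962 (889 to 1041) CPM, and in the near-projecting cluster 23 of both, at 794 (737 to 855) and 897 (837 to 961) CPM. The Adarb2 interneurons, at 732 and 670.2 CPM, were above the Lhx6 interneurons, at 345 and 414 CPM, in both libraries.

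**Figure D2:**
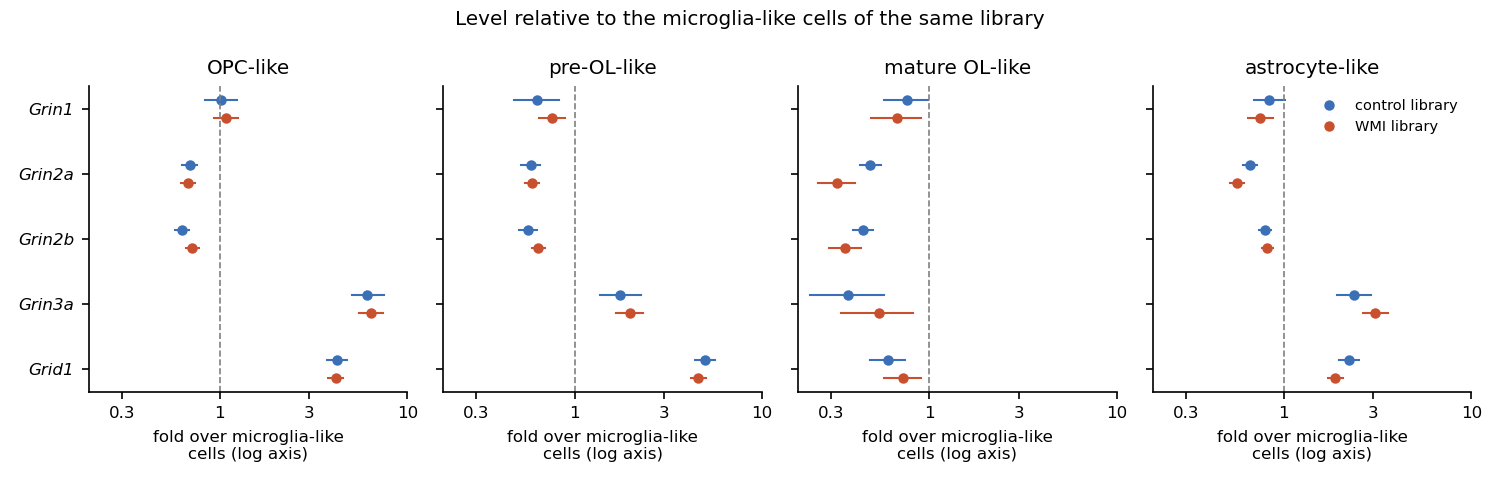
Level of 5 subunits in OL-lineage and astrocyte-like cells as a fold of the microglia-like cells of the same library (log axis, dashed line at 1), with 95% intervals. Grin3a and Grid1 lie above 1 in OPC-like, pre-OL-like and astrocyte-like cells, and Grin2a and Grin2b lie below 1 in all 4 classes.

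The OL lineage passes from OPC through pre-OL to mature OL, and Grin3a and Grid1 were lower from different stages on. Grin3a was already lower in pre-OL-like than in OPC-like cells, with a log2 ratio of -1.80 (-2.07 to -1.54) in the control and -1.69 (-1.85 to -1.54) in the WMI library, a level 3.48- and 3.23-fold lower. In mature OL-like cells it was 16.5- and 11.8-fold lower than in OPC-like cells, from 26 and 24 UMIs. That mature OL-like level was at background, 0.371- and 0.539-fold the microglia-like one. Grid1 was slightly higher in pre-OL-like than in OPC-like cells, with log2 ratios of 0.24 (0.13 to 0.35) and 0.14 (0.06 to 0.22), and then 6.98- and 5.72-fold lower in mature OL-like than in OPC-like cells. The mature OL-like level of Grid1 was also under the microglia-like one. Both libraries gave the same order of stages for Grin3a and Grid1. The cycling OPC-like cluster (23 control and 34 WMI cells) was close to the other OPC-like cells in Grin3a, with 517 and 557 CPM. Its Grid1 was at 1128 and 906 CPM, with log2 ratios to OPC-like cells of 0.09 (-0.14 to 0.31) and -0.22 (-0.43 to -0.02). Its Grin1 was lower, with -1.16 (-2.24 to -0.25) and -0.96 (-1.69 to -0.31), from 10 and 20 UMIs. Its Grin2a had -0.14 (-0.50 to 0.19) in the control and 0.37 (0.08 to 0.65) in the WMI library. Grin2a and Grin2b were also lower in mature OL-like than in OPC-like cells, by log2 values of -0.50 (-0.70 to -0.31) and -0.50 (-0.68 to -0.31) in the control and -1.07 (-1.40 to -0.75) and -0.9969 (-1.28 to -0.72) in the WMI library, but both stages were under the microglia-like level. Grin1 was lower in pre-OL-like than in OPC-like cells, with log2 ratios of -0.69 (-1.08 to -0.31) and -0.50 (-0.73 to -0.28). In mature OL-like cells its ratios to OPC-like cells were -0.42 (-0.80 to -0.05) and -0.67 (-1.13 to -0.25). The OPC-like level of Grin1 was itself not told apart from the microglia-like one. The mature OL-like stage rests on 95 control and 50 WMI cells.

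The comparison of the WMI with the control library asks whether the subunits shifted with the injury in each class. Ratios are log2 of WMI over control CPM with exact conditional 95% intervals, a negative value meaning lower in the WMI library. A gene was counted as past 1.5-fold from its ratio alone, among members with at least 20 UMIs and, for the background, among all genes with at least 200. With the limit of 200 UMIs for the members too, the counts were 0 of 5 in OL precursors, 2 of 6 in astrocyte-like, 1 of 6 in excitatory and 0 of 6 in inhibitory neuron-like cells.

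In the OL precursors, the OPC-like and pre-OL-like clusters combined, none of the 6 counted members was past 1.5-fold, where 6.65% of 5372 genes were (4.08% higher and 2.57% lower). Grin2c held 4 and 8 UMIs and was not counted. The intervals of the ratios of both subunits that stood above background included 0. Grid1 was at 1129 CPM in the control and 1115 in the WMI library, a log2 ratio of -0.02 (-0.08 to 0.05). Grin3a was at 398 and 384 CPM, a log2 ratio of -0.05 (-0.16 to 0.06). The WMI precursors held more pre-OL-like cells (431 beside 466 OPC-like, against 154 beside 293), and within each stage Grin3a had ratios of 0.15 (0.03 to 0.27) and 0.26 (-0.02 to 0.54). Grin2a, at background in these cells, was at 507 and 364 CPM, with -0.48 (-0.58 to -0.37), and in microglia-like cells its ratio was -0.44 (-0.56 to -0.32). Grin1, also at background, was the only counted member above 0 in the combined clusters, with 0.25 (0.05 to 0.45). Its microglia-like ratio was 0.18 (-0.08 to 0.45). Split by stage, the Grin1 ratio was 0.27 (0.03 to 0.52) for the OPC-like cluster. The pre-OL-like cluster had 0.45 (0.09 to 0.83). Grin2b, likewise at background, had -0.24 (-0.34 to -0.14), beside -0.40 (-0.51 to -0.29) for microglia-like cells. Grin2d had -0.32 (-0.94 to 0.33). The median log2 ratio of the counted members was -0.14, and that of all genes was 0.04.

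In astrocyte-like cells 3 of 7 members were past 1.5-fold, all lower in the WMI library, where 15.1% of 4678 genes were past it, 9.68% higher and 5.43% lower. Grin2c had the lowest ratio, -1.35 (-1.62 to -1.08), from the 143 and 56.2 CPM given above, and 0.321% of all genes had a lower one. Grin2a had a ratio of -0.67 (-0.79 to -0.55), with levels below background in both libraries and -0.44 (-0.56 to -0.32) in microglia-like cells. Grin2d had -0.60 (-1.41 to 0.20), from 31 and 26 UMIs, and its interval included 0. Grin3a went the other way, at 207 and 287 CPM and 0.47 (0.31 to 0.63), and did not pass 1.5-fold. Grid1 had -0.22 (-0.32 to -0.11) and Grin2b -0.36 (-0.45 to -0.26). The Grin2c ratio was -1.68 when cells with Xist or Tsix UMIs were left out. Over all classes such cells were 64.6% of the WMI but 0.24% of the control library. A cell without such a UMI may still be female, so this alternative does not separate the ratio from sex.

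In excitatory neuron-like cells 2 of 7 members were past 1.5-fold, 1 higher and 1 lower, where 10.9% of 13549 genes were, 3.75% higher and 7.11% lower. Grin3a was higher in the WMI library, at 161 CPM (157 to 165) against 93.9 CPM (91.1 to 96.7), a log2 ratio of 0.78 (0.72 to 0.84). The control level was 1.07-fold (0.89 to 1.30) the microglia-like one, an interval that spanned 1, and the WMI level 1.72-fold. The ratio did not pass 1.5-fold when clusters 9 and 19 were left out (0.55), as a stricter naming rule would have it, or when cells were averaged with equal weight (0.52). Grin2c was lower, from 138 to 24 UMIs with -2.10 (-2.79 to -1.47), at levels that the intervals of microglia-like cells covered (0.182 to 5.42 CPM in the control and 0.0111 to 2.44 CPM in the WMI library). Grid1 had 0.34 (0.31 to 0.37), Grin2b 0.10 (0.08 to 0.11), Grin1 -0.07 (-0.10 to -0.04), Grin2d -0.05 (-0.19 to 0.10) and Grin2a -0.14 (-0.15 to -0.12). Without clusters 0 and 2, which had at least 90% of their cells from 1 library, but with cluster 9 kept, the ratios of Grin3a, Grid1 and Grin2a were 0.97, 0.28 and -0.25. With each cell averaged alike, the sign turned for Grin2a (0.07) and Grin1 (0.16), and with equal weight to each cluster for Grin2b (-0.03).

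In inhibitory neuron-like cells 1 of 7 members was past 1.5-fold, where 5.76% of 5693 genes were, 3.48% higher and 2.28% lower. This was Grin2c, from 16 and 5 UMIs, and the interval of its log2 ratio, -1.35 (-3.15 to 0.17), included 0. Grin1 had -0.34 (-0.44 to -0.24) and Grin2a -0.29 (-0.35 to -0.24), and Grid1 0.19 (0.11 to 0.28). Within clusters Grid1 had 0.26 (0.10 to 0.42) in the Lhx6 and 0.29 (0.11 to 0.46) in the Sst interneurons. The Adarb2 interneurons went the other way, with -0.13 (-0.25 to -0.001). Grin3a had -0.18 (-0.27 to -0.10) in the class, and -0.05 (-0.15 to 0.05) within the Sst cluster, which held 2176 of 2740 control and 1361 of 1922 WMI UMIs of the class.

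**Figure D3:**
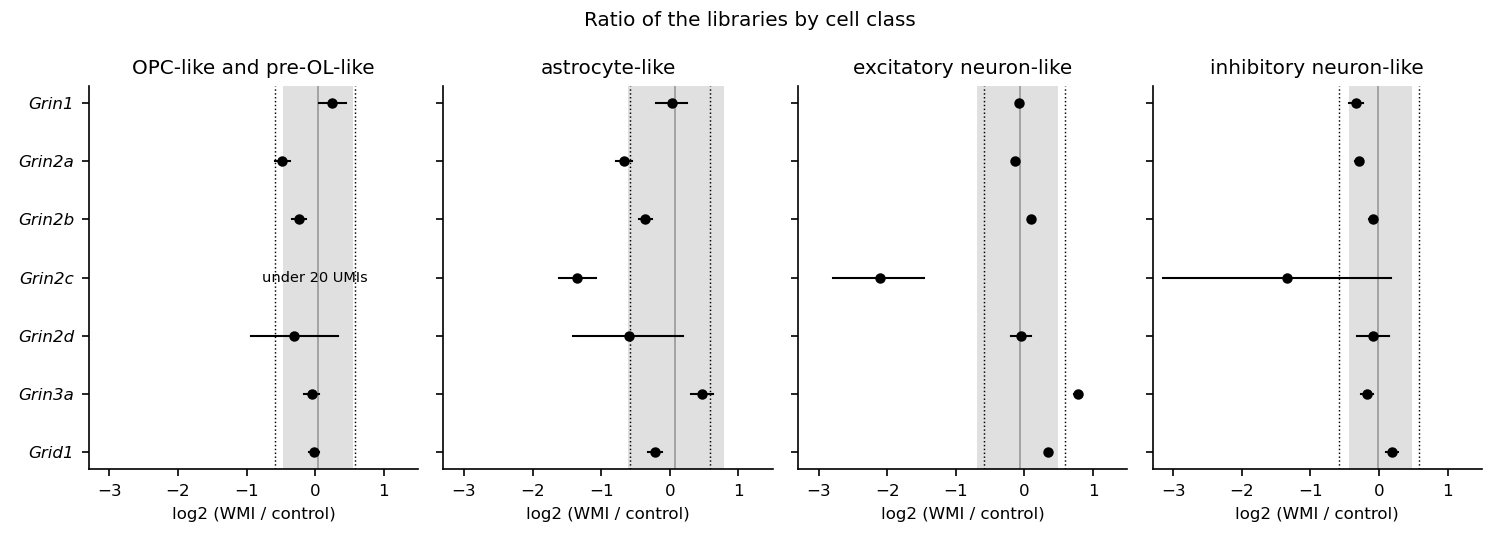
Log2 ratio of WMI to control level for each subunit in 4 cell classes, with 95% counting intervals as bars, 1.5-fold as dotted lines, and the 5th to 95th percentile and median of all genes with at least 200 UMIs as grey band and line. Grin3a lies above the band in excitatory neuron-like cells (0.78) and Grin2c far below it in astrocyte-like cells (-1.35).

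Within the 13 excitatory clusters that held at least 50 cells of each library, Grin2a had a ratio below 0 in all 13, with intervals below 0 in 13, from -0.41 to -0.10. Grin1 was below 0 in all 13 too, with 9 intervals below 0 and a median of -0.21. Grin3a was above 0 in 12, with 9 intervals above 0 and a median of 0.53. The Grin3a ratio was 1.23 (0.91 to 1.54) in cluster 17, 1.21 (0.91 to 1.52) in cluster 13, 1.12 (0.87 to 1.38) in layer 4 and 1.05 (0.76 to 1.33) in layer 6 corticothalamic neurons. It was 0.53 (0.37 to 0.69) in upper-layer neurons and 0.00 (-0.41 to 0.41) in cluster 14. In layer 4 neurons this was 32.4 CPM in the control and 70.5 in the WMI library, both under the microglia-like level of the library. Upper-layer neurons, at 63.9 and 92.3 CPM, were also under it in both. The 6 of the 13 clusters above that level in both libraries had ratios of 0.70 (0.45 to 0.97) in cluster 9, 0.62 (0.35 to 0.90) in cluster 18, 0.51 (0.26 to 0.76) in the near-projecting cluster 23 and 0.46 (0.26 to 0.65) in layer 5 extratelencephalic neurons. In the remaining clusters of these 6 the intervals included 0, with 0.18 (-0.08 to 0.44) in cluster 22 and 0.13 (-0.21 to 0.48) in cluster 24. Over clusters of any class with at least 50 cells per library, Grin3a was above 0 in 22 of 24. Grid1 was above 0 in 11 clusters, with 8 intervals above 0 and a highest ratio of 0.29. Grin2b had a median ratio of -0.01, with 4 intervals below 0 and 0 above. The Grin2a ratio was below 0 in all 24 clusters of any class with at least 50 cells per library, from -1.03 to -0.10. How many other genes were below 0 in all 13 or all 24 clusters was not counted. In the pooled excitatory class 38.8% of genes had a lower ratio than Grin2a, 48.1% than Grin1 and 97.7% than Grin3a. Without clusters 0 and 2 these shares were 14.8%, 20.0% and 97.7%. The 13 clusters come from the same 2 libraries and are not replicates.

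**Figure D4:**
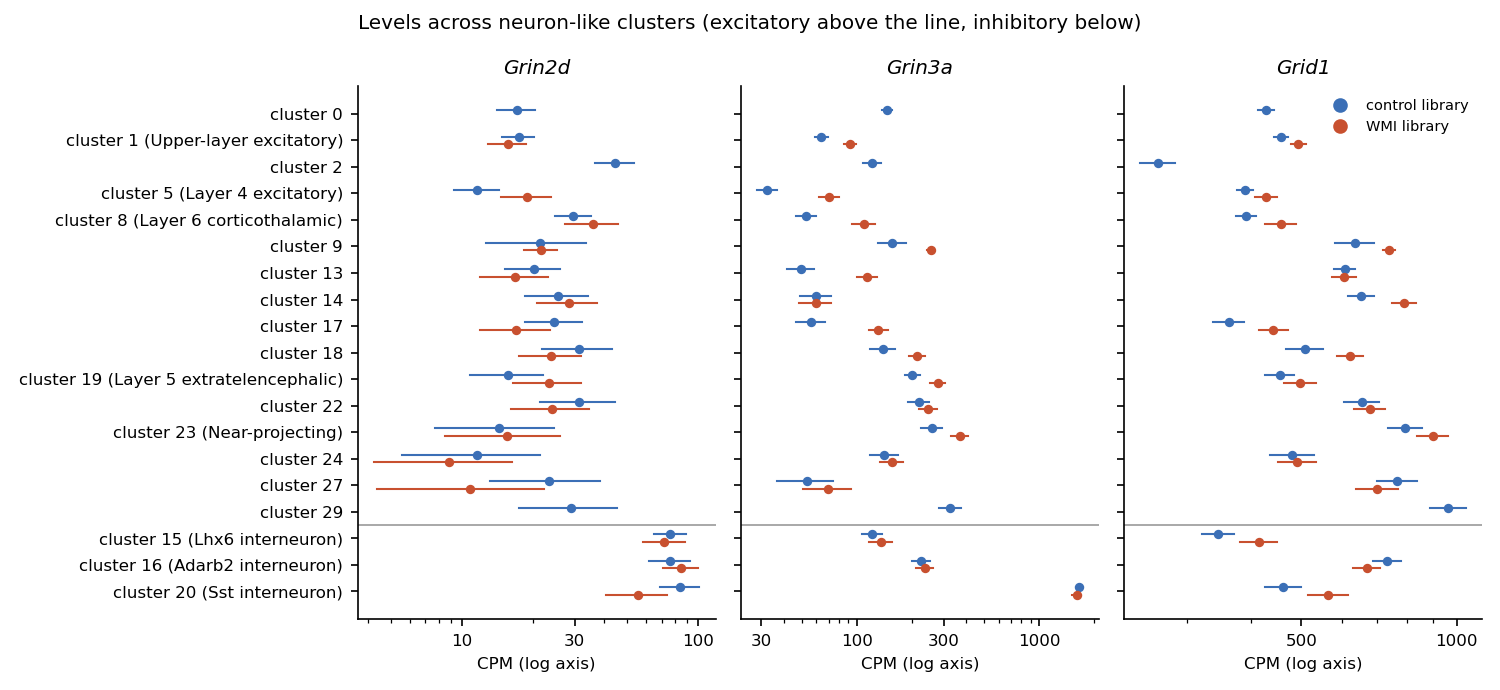
Level of Grin2d, Grin3a and Grid1 in CPM (log axis) in the neuron-like clusters with at least 50 cells of a library, control in blue and WMI in red with exact 95% Poisson intervals. Grin2d is highest in the 3 interneuron clusters below the line, and Grin3a in the Sst interneurons (1661 and 1607 CPM).

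The balance of the 2 main GluN2 genes was followed as the Grin2a share of Grin2a and Grin2b UMIs, which is compared between cells and does not give the ratio of the proteins. In excitatory neuron-like cells the share was 50.1% (49.9 to 50.4) in the control and 46.1% (45.8 to 46.3) in the WMI library. It was lower in the WMI library in 13 of 13 clusters, with separate intervals in 8, and the median difference was -3.04 percentage points. The clusters themselves spanned more than this, from 42.99% to 62.2% in the control and from 40.7% to 60.1% in the WMI library. The near-projecting cluster 23 had the highest share, 62.2% (60.6 to 63.9) and 60.1% (58.4 to 61.7), and layer 6 corticothalamic neurons differed most between the libraries among the named layers, 53.01% (52.3 to 53.8) against 45.98% (44.7 to 47.3). Cluster 9 had 42.99% (41.3 to 44.7) and 42.4% (41.8 to 43.1), with overlapping intervals. In inhibitory neuron-like cells the share was 47.01% (46.2 to 47.8) and 43.6% (42.6 to 44.6), and neuroblast-like cells had 38.2% (34.1 to 42.4) and 31.7% (28.6 to 34.9). Among glia it was 48.03% (46.1 to 49.9) and 43.9% (42.3 to 45.5) in the OL precursors and 41.7% (39.9 to 43.4) and 36.5% (34.7 to 38.4) in astrocyte-like cells, at levels under background. In microglia-like cells it was 46.2% (44.1 to 48.3) and 45.4% (43.6 to 47.3), with overlapping intervals, and the part that free RNA takes in these shares was not tested. Shares of other gene pairs were not computed, so the 13 of 13 clusters have no background to be set beside.

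**Figure D5:**
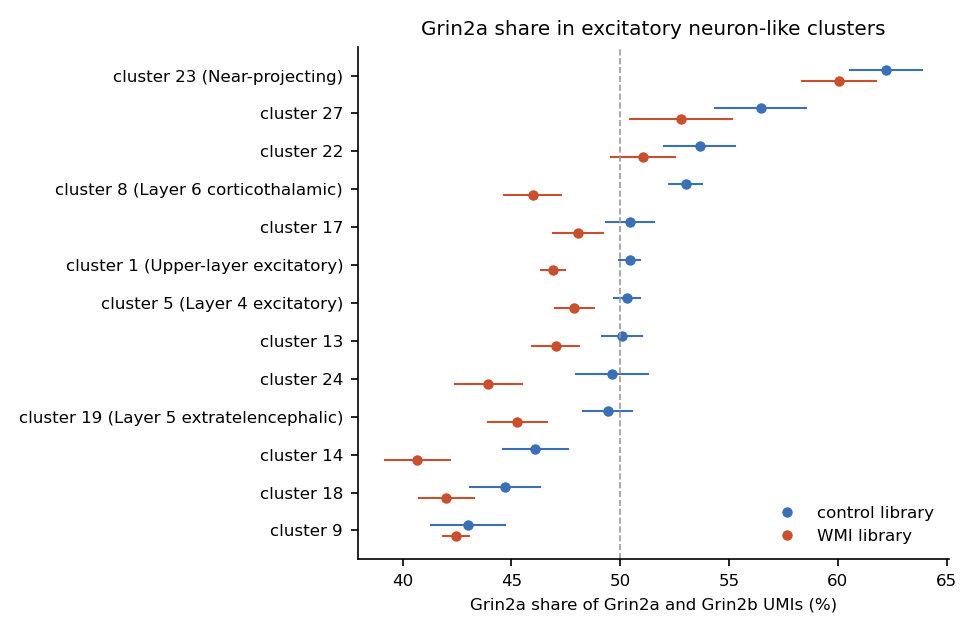
Grin2a share of Grin2a and Grin2b UMIs in percent (dashed line at 50) in the 13 excitatory neuron-like clusters with at least 50 cells per library, control in blue and WMI in red, with exact 95% binomial intervals. The WMI share is the lower one in all 13 clusters.

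The other genes of NMDA and delta receptor function were taken from a list of 33, which holds scaffold proteins, calcium-linked effectors, co-agonist genes, delta receptor ligands and further subunits. With at least 200 UMIs required, 22 could be counted in the OL precursors. Of these 0 were past 1.5-fold in either direction, where 6.65% of 5372 genes were. The highest ratios there were those of Ptk2b, a calcium-activated kinase (0.41), and Nsg1, an endosomal protein (0.38), and the lowest those of Dlg2, the scaffold PSD-93 (-0.49), and Rasgrf1, an exchange factor for Ras (-0.38). In astrocyte-like cells 22 were counted. Past 1.5-fold, 9.68% of 4678 genes were higher and 5.43% lower, and of the 22 counted 0 were higher and 2 lower. The lower ones were Slc7a10, which carries D-serine and glycine across the membrane (168 and 107 CPM, log2 ratio -0.64), and Dlg2 (-0.63). The highest ratios were those of Slc1a4, a transporter of neutral amino acids that takes serine (72.3 and 108 CPM, 0.58), and the kinase Dapk1 (0.39).

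In the pooled excitatory neuron-like class, and not within clusters, 30 of the list were counted. Past 1.5-fold, 3.75% of 13549 genes were higher and 7.11% lower, and of the 30 counted 2 were higher and 1 lower. The higher ones were Nos1, the neuronal nitric oxide synthase that is held near NMDA receptors (6.99 and 13.6 CPM, 0.96), and the cerebellin Cbln4 (2.31 and 3.62 CPM, 0.65), both at low levels. Slc7a10 was the lower one (6.43 and 2.95 CPM, -1.12), followed by the cerebellin Cbln2 (4.62 and 3.30 CPM, -0.49), also at low levels. The part that free RNA takes in these counts was not tested. In inhibitory neuron-like cells 3.48% of 5693 genes were higher and 2.28% lower past 1.5-fold. Of the list 25 were counted there, with 1 higher, Nos1 again (28.96 and 43.8 CPM, 0.60), and 0 lower. Slc1a4 came next (0.31), and the 2 lowest ratios included that of Dlg4, which encodes the postsynaptic scaffold PSD-95 (-0.32). The median log2 ratio of the counted list genes was -0.06, -0.13, -0.06 and -0.07 in the 4 classes in this order, beside 0.04, 0.08, -0.06 and -0.02 for all genes.

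The genes most like each member were sought over 54 units, each a cluster with at least 50 cells in 1 library, by the Pearson correlation of log2(CPM + 5) among 9949 genes. The units share libraries and depth, and the correlations are a description. Grin1 was most like Sptbn4 (r = 0.956), Dmtn (r = 0.941) and Bicdl1 (r = 0.935). Grin2a was most like Grin2b (r = 0.929), Pacsin1 (r = 0.924) and Ryr2 (r = 0.924), and the 3 most like Grin2b included Ksr2 (r = 0.936) and Dlgap2 (r = 0.931). Grin2c was most like Cbs (r = 0.923), Fgfr3 (r = 0.886) and Acsbg1 (r = 0.886), Grin2d most like Ankrd24 (r = 0.803), Kcnmb2 (r = 0.769) and Gm43872 (r = 0.73), Grin3a most like Elfn1 (r = 0.739), Siah3 (r = 0.738) and Chl1 (r = 0.731), and Grid1 most like Adgrl3 (r = 0.762), Ccdc149 (r = 0.695) and Susd4 (r = 0.691). Fgfr3 is an astrocyte gene and Elfn1 an interneuron gene by textbook knowledge, and Elfn1 led the Sst cluster. Both were on the marker lists used to name the clusters, so their correlations are not separate evidence.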

How the data were processed

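UMI counts per gene and barcode of 2 scRNA-seq libraries of mouse cerebral cortex were used, 1 control and 1 WMI, grouped by the sample labels. The authors deposited raw counts made with Cell Ranger 6.1.1 per the file headers, without normalization. The submitters' processing notes name mm9, but all 55450 gene identifiers matched GENCODE M21 on GRCm38. Barcodes were kept at 1000 UMIs and 500 genes or more and a mitochondrial share of at most 10% (748 control and 241 WMI barcodes failed), and doublets predicted by Scrublet in scanpy 1.11.5 (785 and 542, at 0.8% per 1000 barcodes) were removed. Cells were integrated with Seurat 5.3.0 in R 4.3.3 (2000 features without the members, the listed pathway genes and cell-cycle genes, 30 dimensions, resolution 0.8).

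Clusters were named from marker lists. A marker counted at 25% or more of its highest cluster, in at least 10% of cells and, except for excitatory neurons, 3-fold above the lower quartile of clusters. A name needed 4 markers and 60% of the list, 50% for excitatory neurons or 3 markers for inhibitory ones. These limits were set after the clusters and the members' levels in them had been seen and were changed once, from 60% to 50% and from 4 to 3 with a condition on leading genes added, which moved clusters 9 and 19 from unnamed to excitatory. The earlier rule (6410 control and 2237 WMI excitatory cells) was added as an alternative after seeing the data, and the GC box was also chosen then. OL stages are clusters of all cells, not of a second clustering. The members, lists and marker lists were chosen with earlier results of these data known.

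Intervals are exact 95% intervals (Poisson for levels, conditional binomial for ratios, Clopper-Pearson for shares), computed with numpy 2.4.6, pandas 2.3.3 and scipy 1.17.1 in Python 3.11.15. They treat UMIs as independent and leave out variation between animals. The check on simulated counts drew independent Poisson counts, the same assumption, so it says nothing on variation between cells or animals. Genes named are the members, the 3 most like each, and the 2 highest and 2 lowest of the list in each class, of which some are not reported here. The alternatives were doublets kept, a stricter filter (2000 UMIs, 5%), other denominators and centring, means over cells, equal cluster weights, other resolutions (0.4 and 1.6), cells without Xist or Tsix, clusters left out where 90% or more of cells came from 1 library, thinning to 2000 UMIs or none, and a 2-fold limit.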

Additional observations from a re-analysis of the deposited data

How the results depend on the processing

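With 1 library per group, no difference here was checked by replication, and the libraries also differed in depth, cell make-up, mitochondrial share and cells with Xist or Tsix, which cannot be told apart from the injury. No paired analysis was possible because each group had 1 library. Of 270 recomputed ratios of single members, 226 stayed within the counting interval of the reported ratio, 44 moved out of it, and no ratio past 1.5-fold changed sign. The sign of smaller ratios turned in 13 cases. With equal weight to each cell, excitatory Grin2a and Grin1 went to 0.07 and 0.16, and Grin3a in precursors went to 0.17 with equal weight to both stages.

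The number of members past 1.5-fold in the OL precursors was 2 with doublets kept (Grin2a -0.60 and Grin2d -0.64) and 1 without cells with Xist or Tsix (Grin2a -0.59), against 0. In astrocyte-like cells it was 1 with the mean over cells and 1 at 2-fold, Grin2c both times. In excitatory neuron-like cells it was 1 with the mean over cells, 1 at 2-fold and 1 under the 60% naming rule. In inhibitory neuron-like cells it was 0 without cells with Xist or Tsix, where Grin2c fell under 20 UMIs. The excitatory Grin2a share of the control library was 50.6% without clusters 0 and 2, with cluster 9 kept. Equal cluster weights could not be applied to astrocyte-like cells, which formed 1 cluster. Thinning to 2000 UMIs, or none, keeps more UMIs per cell. Shares of cells with a UMI were bound to rise with it, so the rise itself is no check. At 2000 UMIs Grin3a was found in 62.0% of control and 62.3% of WMI OPC-like cells, beside 15.8% and 19.8% of microglia-like cells. Grid1 was found in 85.6% and 88.2% of OPC-like and 85.5% and 84.8% of pre-OL-like cells, beside 36.4% and 39.4%. Grin2c was found in 24.2% and 8.64% of astrocyte-like cells, beside 0.272% and 0.166%.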

Other observations

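Grin3b, the other glycine-binding subunit gene, had 19 control and 22 WMI UMIs in all kept cells.

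Striatal projection neuron-like cells were found almost only in the WMI library (119 cells against 2). They held 1458 CPM (1383 to 1535) of Grin2b and 852 CPM (795 to 912) of Grin2a, a Grin2a share of 36.9% (34.9 to 38.9), and 751 CPM (698 to 807) of Grid1. The WMI cells of the 3 unnamed clusters held 685 CPM of Grin2a, 920.5 CPM of Grin2b and 139 CPM of Grin3a.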
